A study of Mus musculus with 6 samples.

Results

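The genes of the endoplasmic reticulum (ER) stress and ATF4 response were followed in mouse leukemia stem cells recovered from bone marrow and from liver. The 35 genes were taken by symbol from a list chosen with earlier results of these data known. All 35 were among the 53735 genes in the deposited table. They were read in 4 groups: 9 stress sensors and factors, 9 targets of ATF4, 3 enzymes of serine synthesis, and 14 genes of ER folding and degradation. All cells were taken from untreated C57 mice, 13 days after transplantation of leukemia cells. Bone marrow and liver gave 3 libraries each. The labels name the cells as leukemia stem cells but do not name the leukemia's driver or the sort. The replicates of a tissue are labelled as technical and no animals are named, so the p-values below reflect only the scatter of these libraries.

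Cells answer unfolded protein in the ER through 3 membrane sensors. IRE1, encoded by Ern1, splices the mRNA of the transcription factor XBP1. ATF6 is cut to release a transcription factor, and PERK, encoded by Eif2ak3, phosphorylates the translation factor eIF2alpha, encoded by Eif2s1. Phosphorylated eIF2alpha lowers general protein synthesis and favours translation of ATF4, which turns on genes of amino acid supply, redox balance and, through CHOP, cell death. XBP1 and ATF6 raise the chaperones, disulfide isomerases and degradation factors of the ER. In blood-forming cells these pathways are known for their part in secretory granulocytes and plasma cells and in stem cell survival under stress. Gene counts do not separate spliced from unspliced Xbp1 and do not report translation or phosphorylation.

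Depth ran from 9.73 to 18.5 M reads per library, lower in liver (9.73 to 13.8 M) than in bone marrow (15.4 to 18.5 M), and the 35 genes took 0.792% to 0.951% of a library's reads. Normalized counts are reads divided by 1 size factor per library. Replicate 1 and replicate 2 stood apart in both tissues, although every library is labelled male. Xist, given as bone marrow then liver, read 4860 and 6229 normalized counts for replicate 1, 4.28 and 1.42 for replicate 2, and 2486 and 2425 for replicate 3. The sum of 4 Y-linked genes ran the other way, with 145 and 0 for replicate 1, 2987 and 2675 for replicate 2, and 1553 and 1634 for replicate 3. Replicates 1 and 2 thus do not read as repeats of 1 sample, and whether replicate 3 is independent of them is not known from the labels. Each n = 3, SD and p-value below takes it as independent, and the counts are also given without both replicate 3 libraries. All 8 stem and progenitor markers listed were detected in both tissues (Kit, Ly6a, Cd34, Flt3, Hoxa9, Meis1, Erg and Myb). The defining hepatocyte genes Alb, Ttr, Fgb, Apoc3, Serpina1a and Serpina1b were at 0 in all 6 libraries. The 10 hepatocyte markers listed still gave sums between 2674 and 5697 normalized counts (bone marrow) and between 2310 and 3064 (liver), nearly all from Apoa1 (2645 to 5659 and 2285 to 3003), with Trf and Apoa2 low and Ahsg at or near 0. The liver macrophage genes Clec4f, Vsig4 and Cd5l were also at 0.

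Among the 35 genes, 1 passed the test between tissues, Atf4, which rose in liver, and 34 did not pass. The test was limma on log2(normalized count + 1), with Benjamini-Hochberg adjustment over 14298 genes and a threshold of 0.05. In that comparison 1.01% of all genes were called, 0.42% higher and 0.594% lower in liver, so 1 of 35 (2.86%) rests on a single gene. On recovered reads edgeR called 1 of the 35, again Atf4, against 0.944% of all genes, and DESeq2 called 3 (Atf4, Eif2s1 and Ern1) against 4.84%. Without both replicate 3 libraries 0 of the 35 and 2 of all genes were called. The tissues did not overlap in 8 of the 35 genes (22.9%), 4 higher and 4 lower in liver, against 22.3% of all genes tested. At an unadjusted p under 0.05 there were 7 of the 35 (20%), against 15.7% of all genes. Both shares of the 35 lay near those of all genes.

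Atf4 encodes the transcription factor at the centre of the response and lies on chromosome 15 from 80255184 to 80257541 on the plus strand (GRCm38). It was at 2781, 2724 and 2877 normalized counts in bone marrow replicates 1, 2 and 3 and at 3393, 3561 and 3581 in liver. The lowest liver library exceeded the highest of bone marrow, so the tissues did not overlap. The means were 2794 ± 77.3 and 3511 ± 103 (SD, n = 3 each), 25.7% higher in liver, on 10148 and 8913 reads. The log2 difference was 0.33 ± 0.052 (SE), with a limma adjusted p of 0.041. The call was lost without bone marrow replicates 1, 2 and 3 (limma adjusted p = 0.16, 0.15 and 0.22) and without liver replicates 2 and 3 (0.077 and 0.23). It was kept without liver replicate 1 (0.024), while the log2 difference stayed between 0.31 and 0.35 in these fits. With no filter on low genes the limma adjusted p was 0.057. The sum of 16 genes that respond to cell isolation was 89657 to 96728 in bone marrow and 108106 to 126228 in liver. Of the 16, 5 were called higher (Hspa1a, Hspa1b, Hsp90aa1, Dnajb1 and Atf3) and the others were not called. Among those others Fosb, Ier3 and Jund had negative log2 differences (-0.50, -0.33 and -0.10) and the rest positive ones. Within liver that sum was highest in replicate 1, where Atf4 was lowest. Of the 16, Atf3, Hsp90aa1 and Ier3 were also lowest in liver replicate 1, Hspa8 lay between, and the others were highest there. The part of these 16 genes in the Atf4 difference was not tested. In these bulk samples fewer cells of a type and less RNA per cell cannot be told apart.

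**Figure D1:**
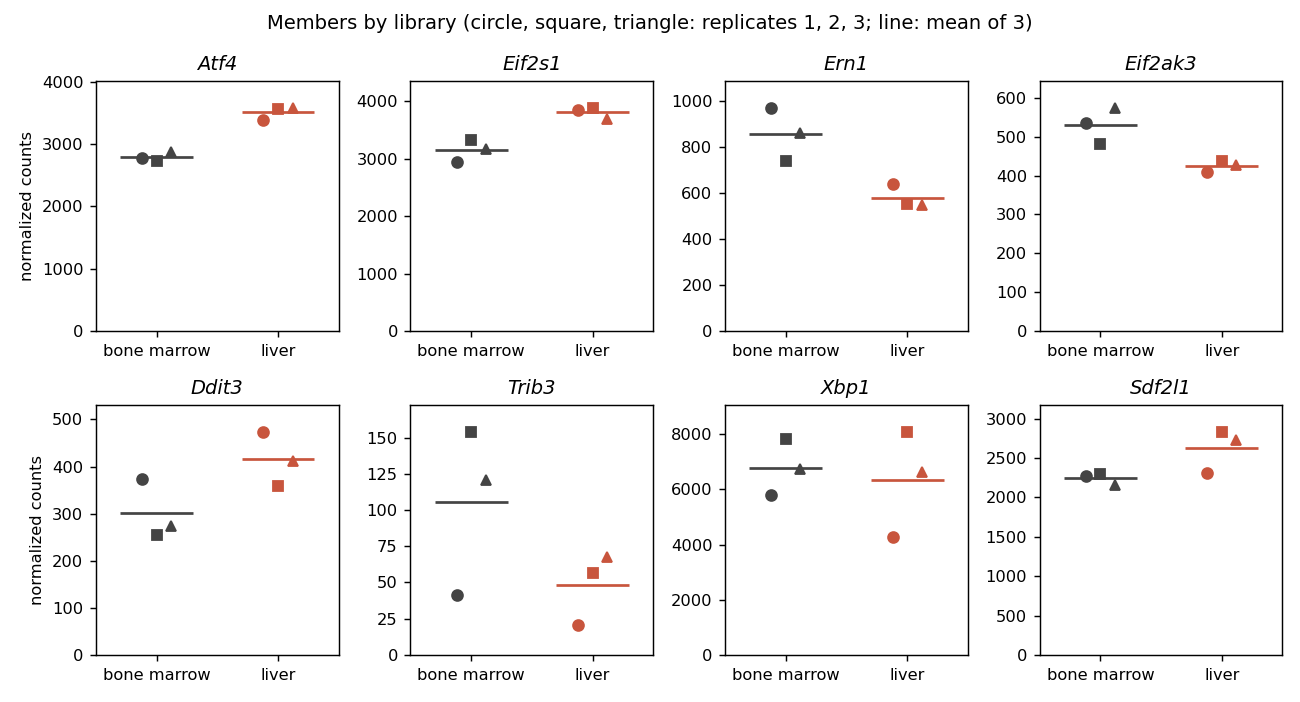
Normalized counts (y axis, from 0) of 8 genes in each library, bone marrow in grey and liver in red, with the mean of 3 libraries as a line. Atf4 and Eif2s1 were higher in every liver library and Ern1 and Eif2ak3 lower, while Xbp1 ran from 4287 to 8098 within liver alone. Of these, Atf4 passed the test.

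The membrane sensor genes Ern1, Eif2ak3 and Atf6 had negative log2 differences and Eif2s1 and Eif2ak4 positive ones. None passed in the limma fit on tissue alone with all libraries kept. Ern1, which encodes the sensor kinase and RNase IRE1, was at 971, 739 and 863 normalized counts in bone marrow and at 641, 551 and 550.3 in liver. No liver library reached the lowest bone marrow library. The means were 858 ± 116 and 581 ± 52.1 (SD, n = 3 each), a log2 difference of -0.56 (95% confidence interval -0.84 to -0.27) that did not pass (limma adjusted p = 0.089). It passed without liver replicate 1 (-0.63, limma adjusted p = 0.043). The gene spans chr11:106394650-106487852 (GRCm38, minus strand).

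Eif2ak3, the gene of the PERK kinase, was at 536, 480.4 and 574 in bone marrow and at 408, 436 and 426 in liver. The tissues did not overlap, and the log2 difference of -0.32 (-0.55 to -0.09) did not pass (limma adjusted p = 0.19). Eif2s1, the gene of the kinases' substrate eIF2alpha, was at 2941, 3332 and 3173 in bone marrow and at 3856, 3887 and 3700.4 in liver. All 3 liver libraries were above all 3 bone marrow libraries, with a log2 difference of 0.28 (0.14 to 0.42) that did not pass (limma adjusted p = 0.092). Eif2ak4, which encodes GCN2, the eIF2alpha kinase that senses amino acid shortage, differed by 0.03 (-0.18 to 0.24).

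The other factors overlapped between tissues. Xbp1, the substrate of IRE1 and a factor of ER expansion, was at 5795, 7823 and 6729.9 normalized counts in bone marrow and at 4287, 8098 and 6631 in liver, so its lowest and highest library were both from liver. Its log2 difference was -0.14 with an interval of -0.65 to 0.38 (limma adjusted p = 0.83). Atf6 was at 985, 615 and 793 in bone marrow and at 1049, 598 and 668 in liver. Replicate 1 held the highest Atf6 level in both tissues, and the tissue difference of -0.06 was small beside it. Atf6b, a relative of Atf6, differed by 0.10 and Atf5, a factor translated under the same control as ATF4, by -0.0031, neither passing.

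The 9 ATF4 targets did not rise together. None passed, and 5 had a positive and 4 a negative log2 difference, from -1.07 to 0.47, with a median of 0.08 against -0.01 over all genes tested. The mean over the 9 had the other sign (-0.03), and the median was -0.06 when Chac1 and Cth, with means under 50 normalized counts, were left out. Without single libraries the median ran from -0.09 to 0.14. At an unadjusted p under 0.05 there was 1 of the 9, Ddit3 (limma adjusted p = 0.26), against 15.7% of all genes. edgeR and DESeq2 called 0.

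Promoter sequence is given for the ATF4 targets because ATF4 binds, with C/EBP partners, a composite element (CARE) that some of them carry close to the start site. The letters TGATGNAA were searched on both strands of RefSeq promoters of GRCm38.p6, 250 bases before to 50 after the start. They were found in 4 of the 8 ATF4 targets with an entry (Asns, Chac1, Nupr1 and Trib3) and in 4.51% of all 27025 genes with an entry. They were in 0 of 8 sensors and factors, in 0 of 3 serine synthesis genes and in 1 of 12 ER folding and degradation genes (Herpud1). A match is a description of letters and not of binding. The 4 stretches below read 5′ to 3′ on the gene's strand, with the match in capitals (TTGCATCA and TTACATCA are matches on the opposite strand).
Trib3, chr2:152344028-152344057, minus strand: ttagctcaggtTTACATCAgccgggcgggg
Chac1, chr2:119351029-119351076, plus strand: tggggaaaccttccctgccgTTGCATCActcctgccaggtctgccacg
Asns, chr6:7693214-7693243, minus strand: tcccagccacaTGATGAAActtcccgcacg
Nupr1, chr7:126625553-126625600, minus strand: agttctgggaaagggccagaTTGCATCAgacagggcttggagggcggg

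Trib3, whose match lies 15 to 22 bases after the RefSeq start, encodes a pseudokinase that is induced by ATF4 and CHOP and feeds back on both. It was at 41.3, 154 and 120.5 normalized counts in bone marrow and at 20.7, 56.9 and 67.4 in liver. Bone marrow replicates 2 and 3 stood above every liver library, but bone marrow replicate 1 lay among the liver libraries. The mean was 105 ± 57.9 in bone marrow and 48.3 ± 24.5 in liver (SD, n = 3 each), on 388 and 117 reads. The log2 difference of -1.07 ± 0.60 (SE) was the lowest of the 35 and did not pass (limma adjusted p = 0.45). Its interval ran from -2.46 to 0.32.

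The other 3 genes with the element also gave no call. Chac1, a glutathione-degrading enzyme, was at 5.39, 30.0 and 27.5 normalized counts in bone marrow and at 11.9, 19.9 and 33.7 in liver, on 78 and 54 reads. Its interval of -1.38 to 1.87 spans changes of over 1 log2 unit in both directions, so differences of that size were not detectable with these libraries. Bone marrow replicate 1 held 6 of the 78 bone marrow reads. Asns, asparagine synthetase, was at 1109.7, 1215 and 1260.3 in bone marrow and at 1275, 918 and 993 in liver (log2 difference -0.18). Its highest library was liver replicate 1. Nupr1, a small stress-induced chromatin protein, was at 3537, 2622 and 2943 in bone marrow and at 3498, 2348 and 2935 in liver (-0.06), nearly the same 3 levels in each tissue.

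Ddit3, which encodes the death-promoting factor CHOP, had the highest log2 difference of the 35. It was at 374, 254 and 274 normalized counts in bone marrow and at 474, 359.6 and 412 in liver. Liver replicate 2 fell below bone marrow replicate 1, and the difference of 0.47 ± 0.18 (SE) did not pass (limma adjusted p = 0.26). Exon bases of Ddit3 are shared with Mars, and the library kit marks no strand, so reads of the pair cannot be told apart there. Ppp1r15a, which encodes GADD34, the phosphatase subunit that reverses eIF2alpha phosphorylation, was at 3306, 2313 and 2704 in bone marrow and at 3628, 2385 and 2842 in liver (0.08). Like Ddit3 and Nupr1 it was highest in replicate 1 of each tissue.

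Ddit4, an inhibitor of mTORC1 signalling, was at 613, 699.6 and 710.1 normalized counts in bone marrow and at 720.2, 765 and 759.8 in liver. The tissues did not overlap, but the gap between them was narrow, and the log2 difference of 0.15 did not pass (limma adjusted p = 0.46). Sesn2, a leucine sensor that also restrains mTORC1, was at 980.4, 1283 and 1085 in bone marrow and at 796, 1072 and 1011 in liver (-0.22, limma adjusted p = 0.51). Cth, which makes cysteine from cystathionine, was close to the detection limit, at 6.28, 11.1 and 16.4 in bone marrow and 28.7, 8.53 and 9.63 in liver on 42 and 43 reads.

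**Figure D2:**
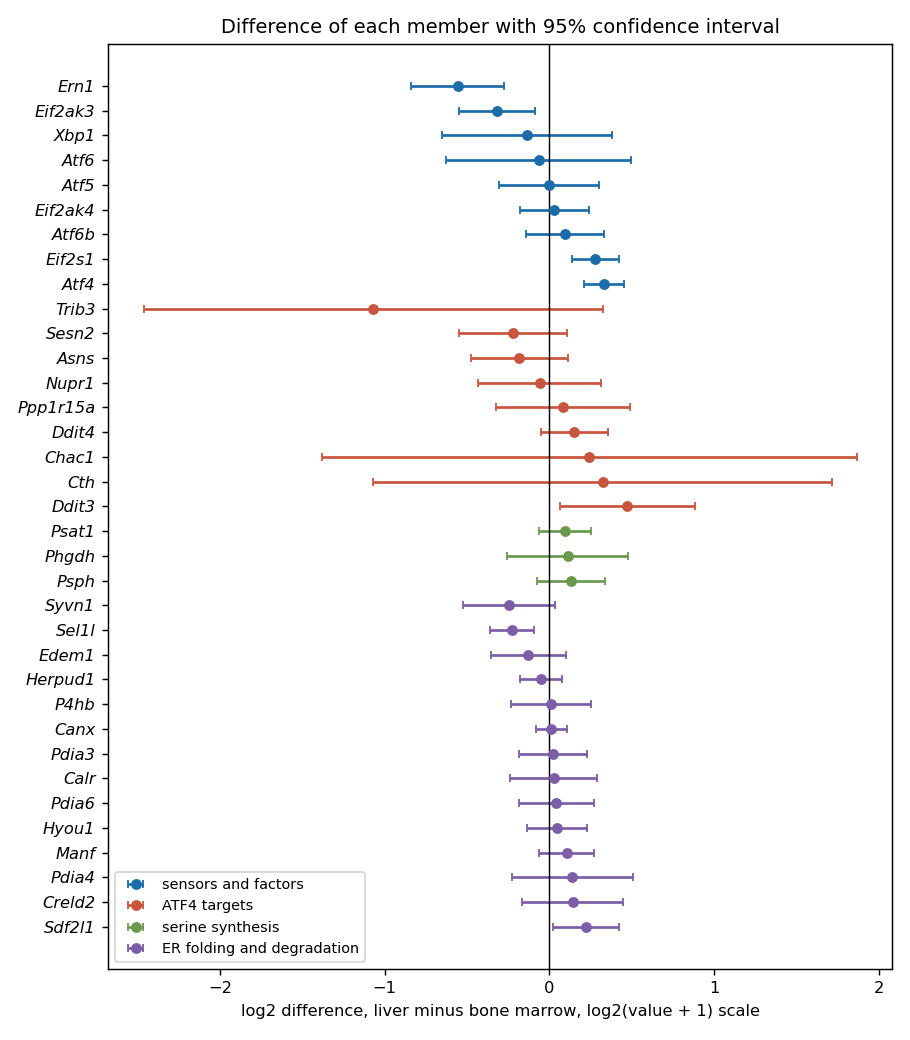
Log2 difference of each of the 35 genes, liver minus bone marrow, on the log2(normalized count + 1) scale (x axis), with the 95% confidence interval from limma, coloured by group. Intervals of ATF4 targets reach from -2.46 to 1.87, while those of ER folding and degradation genes all lie within 1 log2 unit of 0.

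The 3 enzymes of serine synthesis, which ATF4 also controls and which supply one-carbon units, all had small positive differences and did not pass with limma, edgeR or DESeq2 (0 at an unadjusted p under 0.05). Phgdh, the first enzyme of the path, was at 3159, 3686 and 3389.9 normalized counts in bone marrow and at 2875, 4585 and 3771 in liver. Both its lowest and its highest library were from liver (log2 difference 0.11, limma adjusted p = 0.79). Psat1 was at 3276, 3429 and 3384 in bone marrow and 3288, 3828 and 3671 in liver (0.09), and Psph at 962, 1106 and 1005 against 1028, 1197 and 1140.3 (0.13). For all 3 the lowest liver library was replicate 1 and the highest replicate 2. Psph shares exon bases with Cct6a.

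The 14 genes of ER folding and degradation included the most abundant of the 35. Per kb of exon the order was led by Calr (6293 normalized counts per kb over the 6 libraries), P4hb (5298), Pdia3 (4221), Canx (2219) and Sdf2l1 (2195), and 7 of the 10 highest of the 35 were from this group. Xbp1 stood at 2020 and Atf4 at 1337 on the same scale, and Trib3 (36.2), Chac1 (13.1) and Cth (4.81) were the lowest.

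None of the 14 passed between tissues with limma, edgeR or DESeq2. An unadjusted limma p under 0.05 was found for 2 of the 14, against 15.7% of all genes. Their median log2 difference was 0.02, with 10 positive and 4 negative values between -0.25 and 0.22, against a median of -0.01 over all genes. The interval lay within 0.5 log2 units of 0 for 12 of the 14, and within 1 for all 14. Canx, the membrane lectin chaperone calnexin, had the narrowest interval, with a log2 difference of 0.01 and an interval of -0.08 to 0.11. The ATF4 targets were less tightly bounded, with 4 of 9 intervals within 0.5. Without single libraries the median of the 14 ran from -0.04 to 0.12.

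Promoters of this group hold the ER stress response element (ERSE), which ATF6 and XBP1 bind together with NF-Y, and stretches of it are shown because no ATF4 target carried it. The search was for CCAAT followed after 9 bases by CCACG, on both strands. It was found in 5 of the 12 genes with an entry (Calr, Canx, Creld2, Pdia6 and Syvn1), in 0 of 8 ATF4 targets and in 0.137% of all genes with an entry. The shorter form ERSE-II, ATTGG and CCACG with 1 base between them, was found in Herpud1, which also holds the ATF4 element, and in 0.0444% of all genes with an entry. The unfolded protein response element TGACGTGG was found in 0 of the 31 genes with an entry and in 0.714% of all genes with one. The cAMP response element TGACGTCA was found in Ppp1r15a and in 2.03% of all genes with an entry. Capitals mark the element, its spacer included.
Calr, chr8:84847055-84847113, minus strand: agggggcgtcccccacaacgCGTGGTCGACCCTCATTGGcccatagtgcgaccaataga
Canx, chr11:50325780-50325838, minus strand: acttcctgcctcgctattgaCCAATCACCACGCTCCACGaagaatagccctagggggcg
Pdia6, chr12:17266471-17266529, plus strand: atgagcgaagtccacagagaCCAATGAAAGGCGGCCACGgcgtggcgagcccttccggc
Creld2, chr15:88819500-88819558, plus strand: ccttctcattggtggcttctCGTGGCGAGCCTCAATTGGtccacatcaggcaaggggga
Syvn1, chr19:6046512-6046570, plus strand: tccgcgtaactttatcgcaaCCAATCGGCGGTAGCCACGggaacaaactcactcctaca
Herpud1, chr8:94386297-94386407, plus strand: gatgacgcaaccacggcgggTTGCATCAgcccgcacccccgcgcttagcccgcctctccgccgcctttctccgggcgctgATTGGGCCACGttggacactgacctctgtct

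Of the 5 genes with the longer element, 4 had log2 differences from 0.01 to 0.14 and Syvn1 had -0.25. Of the 5 with the ATF4 element, Chac1 had 0.24 and the other 4 had negative differences, from -1.07 in Trib3 to -0.05 in Herpud1, while Atf4 itself had 0.33. None of these 10 passed.

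Genes of ER-associated degradation, which export misfolded proteins to the proteasome, gave the 4 negative differences of the group. Sel1l, the adaptor of the ubiquitin ligase, was at 1942, 1863 and 1805 normalized counts in bone marrow and at 1607, 1598 and 1591 in liver. Its 3 liver libraries were close together and all below bone marrow (log2 difference -0.23 with an interval of -0.36 to -0.09, limma adjusted p = 0.12). Syvn1, the ligase HRD1 itself, was at 958, 1067 and 958 in bone marrow and at 702, 934 and 893 in liver, also without overlap (-0.25, limma adjusted p = 0.38). Edem1, which hands misfolded glycoproteins to this path, differed by -0.13 and Herpud1, a scaffold of the ligase complex, by -0.05, both overlapping.

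Of the folding factors, Sdf2l1, a cofactor of ER chaperones, showed the highest difference. It was at 2272, 2291 and 2159 normalized counts in bone marrow and at 2305, 2836 and 2727 in liver. Liver replicate 1 was barely above the highest bone marrow library, and the log2 difference of 0.22 did not pass (limma adjusted p = 0.28). Without liver replicate 1 it was 0.31 with a limma adjusted p of 0.042. Manf, a secreted ER stress-induced factor, was at 2652, 2835 and 2688 in bone marrow and at 2727, 3194 and 2888 in liver (0.11). Creld2, an isomerase-like secreted protein, differed by 0.14, Hyou1, a large ER chaperone, by 0.05, and the disulfide isomerases Pdia3, Pdia4, Pdia6 and P4hb by 0.02, 0.14, 0.04 and 0.01.

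**Figure D3:**
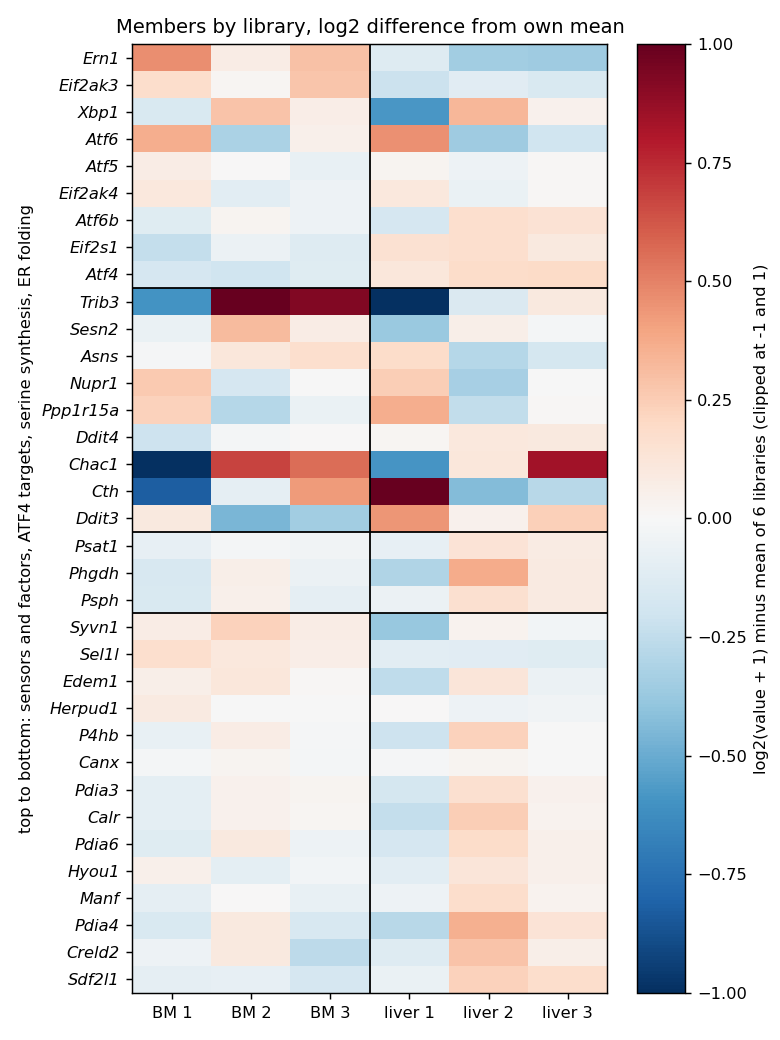
Log2(normalized count + 1) of each of the 35 genes (rows, in 4 groups) in each library (columns, BM for bone marrow) minus that gene's mean over the 6 libraries, with colours clipped at -1 and 1. Most ER folding genes were low in liver replicate 1 and high in liver replicate 2, and Trib3 and Chac1 were low in replicate 1 of both tissues.

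ER folding and degradation genes differed more within liver than between tissues: in 13 of the 14, replicates 1 and 2 of liver were farther apart than the tissue means, against 65.5% of all genes tested. In 12 of the 14 the liver libraries stood in the order replicate 1, 3, 2 from low to high, against 26.3% of all genes tested. Liver replicate 2 held the highest of the 6 values in 11 of the 14 (21.7% of all genes), and liver replicate 1 the lowest in 8 (22.4%). Calr, the soluble lectin chaperone calreticulin, read 16847, 18545 and 18265 normalized counts in bone marrow and 15248, 21395 and 18439 in liver. P4hb was at 13091, 17665 and 15034 in liver and at 14315, 15891 and 14949 in bone marrow. For both, liver replicate 1 lay below and liver replicate 2 above all bone marrow libraries, and liver replicate 3 lay among them. These 2 and Xbp1, which had the same order, were chosen after their values were seen.

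Several marker lists of other cell types had the same order in liver, and others did not. The sums for replicates 1, 2 and 3 were 2143, 10494 and 7355 normalized counts for primary granule genes, 173, 809 and 467 for 9 neutrophil genes, and 15907, 24424 and 20755 for 8 basophil and mast cell genes. In bone marrow they ran from 1392 to 2936, from 65.5 to 101.9 and from 22775 to 27265. The 16 isolation-response genes had the opposite order in liver (126228, 108106 and 116314), as did 5 erythroid genes (11471, 10331 and 11089). The 8 stem and progenitor markers summed to nearly the same level in each (12139, 12100 and 12131). Of these, Ly6a, Flt3 and Myb had the order 1, 3, 2, Hoxa9 and Meis1 the opposite order, and Kit, Cd34 and Erg neither. Endothelial, monocyte, T and NK cell and hepatocyte sums followed the order 1, 3, 2, while 6 liver macrophage genes summed to 9.88, 4.26 and 0. The endothelial sum was nearly all Pecam1, with Cdh5 at 0, and the hepatocyte sum nearly all Apoa1. Nkg7 made up nearly all of the T and NK cell sum, with Cd3e, Cd4 and Ncr1 at 0. Among monocyte genes Ly6c2, Ccr2 and Fcgr1 had the order and Csf1r and Cx3cr1 did not. These sums thus do not by themselves mark those cells. The 10 B and plasma cell markers summed to 14.8, 73.9 and 49.4 in liver and to 50.3 to 94.2 in bone marrow, with the plasma cell gene Mzb1 at 0 in all 6 libraries and Jchain at 0 to 4.94. The relation of these marker sums to the ER folding genes was not tested.

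Replicates 1 and 2 differed in the same direction in both tissues in 30 of the 35 genes (85.7%), against 61.1% of all genes tested. Lower levels in replicate 1 of both tissues were found in 11 of the 14 ER folding and degradation genes, all 3 serine synthesis genes and 4 of the 9 ATF4 targets, against 30.7% of all genes. Higher levels in replicate 1 of both tissues were found in 9 of the 35 (25.7%), against 30.4% of all genes. Among the 9 were Atf6, Ddit3, Ppp1r15a, Nupr1 and Ern1. In 22 of the 35 genes this difference was larger in each tissue than the difference between tissues, against 43.2% of all genes. For Trib3 the log2 difference of replicate 1 minus replicate 2 was -1.87 in bone marrow and -1.41 in liver. Xist and the Y-linked genes set the same libraries apart, and their relation to these genes was not tested. Replicate 3 lay between replicates 1 and 2 in 22 of the 35 genes in bone marrow and in 29 in liver, against 43.7% and 50.9% of all genes.

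**Figure D4:**
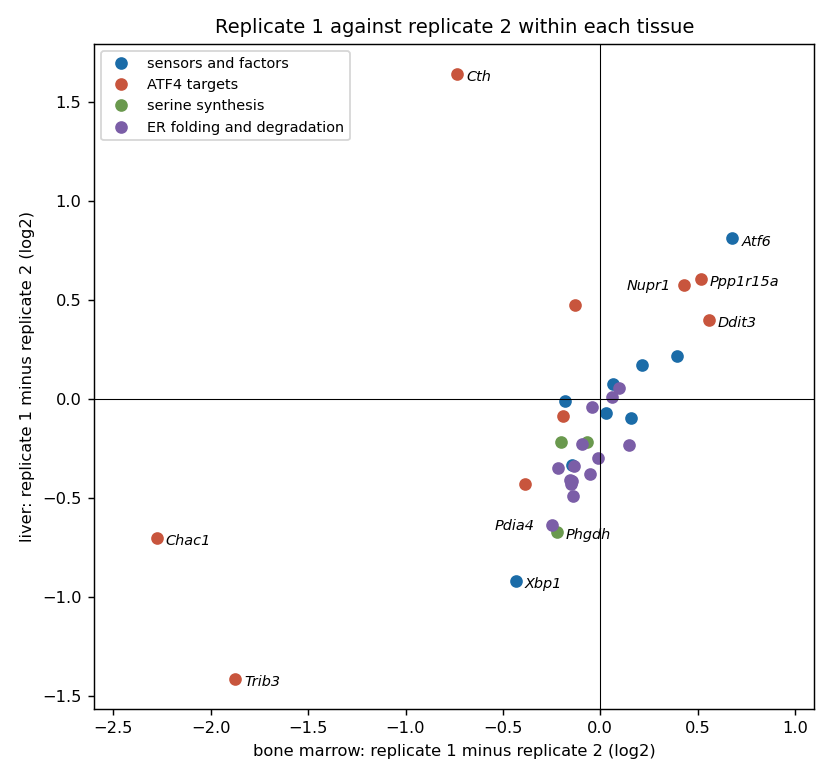
Difference between replicate 1 and replicate 2 in log2(normalized count + 1), in bone marrow (x axis) and in liver (y axis), 1 point per gene coloured by group. Of the 35 genes, 30 lie at the lower left or upper right of the origin, with Trib3 and Chac1 far to the lower left and Cth at the upper left.

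Further genes of the pathways were read from lists of known targets. Of 37 tested further ATF4 targets, Atf3 rose, Sqstm1 fell and 35 did not pass (median log2 difference 0.02). The 2 called make 5.41% of this list, against 1.01% of all genes. Atf3, a stress-induced repressor that is also among the isolation-response genes, was at 294, 275 and 256 normalized counts in bone marrow and at 418, 523 and 478 in liver (0.78, limma adjusted p = 0.041). Sqstm1, the autophagy receptor p62, was at 7462, 7975 and 7562 in bone marrow and at 5478, 6182 and 5827 in liver (-0.40, limma adjusted p = 0.040). Both were lost without bone marrow replicates 1, 2 and 3 and without liver replicate 3 (limma adjusted p from 0.14 to 0.23), and Atf3 also without liver replicate 2 (0.074).

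Of 42 tested further targets of XBP1 and ATF6, 0 passed with limma on tissue alone and 0 with edgeR. With DESeq2 2 passed (4.76%), against 4.84% of all genes. An unadjusted limma p under 0.05 was found for 9 of the 42, against 15.7% of all genes, and the median was -0.03. The smallest p were those of Os9, a lectin of ER-associated degradation (-0.20, limma adjusted p = 0.10), and Sil1, an exchange factor of the chaperone BiP (-0.33, 0.11). Hspa5, which encodes BiP, was at 18757, 19135 and 18763 normalized counts in bone marrow and at 20873, 20660 and 19956 in liver, without overlap and without passing (0.12, limma adjusted p = 0.21). Hspa5 was chosen after its values were seen.

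The 18 tested genes of eIF2 and its regulators also held no call with limma, edgeR or DESeq2 (median 0.04). Of the 18, 5 had an unadjusted limma p under 0.05, against 15.7% of all genes. Eif2b1, a subunit of the eIF2 exchange factor that the integrated stress response inhibits, had the smallest p (0.24, limma adjusted p = 0.14). Among 8 mitochondrial stress genes 1 was called with limma (12.5%, against 1.01% of all genes) and 7 did not pass, with a median of 0.15. The called gene Hspe1, the mitochondrial chaperonin cofactor, rose (0.46, limma adjusted p = 0.043). Its call was kept without liver replicate 1 (0.038) and lost without any other library (0.065 to 0.24). The list named for TRIB3 and CHOP partners and IRE1-dependent decay also held the isolation-response gene Dnajb1. In that list 1 of 8 was called (12.5%, against 1.01% of all genes) and 7 did not pass. The share rests on Dnajb1 alone, an HSP40 gene, which rose (0.78, limma adjusted p = 0.0085). Its call was lost without bone marrow replicates 1 (0.051) and 3 (0.097) and without liver replicate 3 (0.095). The IRE1 substrate Bloc1s1 was low, at 16.2, 25.7 and 20.1 normalized counts in bone marrow and at 14.8, 11.4 and 15.7 in liver. The tissues did not overlap, and the log2 difference of -0.52 ± 0.37 (SE) did not pass (limma adjusted p = 0.55).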

How the data were processed

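Transcript levels came from 1 deposited table. The deposited values are a signal per gene and library: gene read counts scaled by a library's size factor. The submitters' processing notes name STAR 2.6.0c, Trimmomatic 0.36, bcl2fastq 2.19.0, R 3.4.1 and DESeq2 1.16.1. Build, annotation and the tool that counted reads: not given in the sources used here. Per the labels' protocols, low-input full-length cDNA was tagmented. All values (100%) were whole multiples of the library's smallest value within 0.01, so reads could be recovered.

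For the 14298 genes with a mean of at least 10, limma 3.58.1 under R 4.3.3 modelled log2(normalized count + 1) on tissue alone, with its trend option. Tests were two-sided, and p-values were adjusted over all genes by Benjamini-Hochberg. The fold scale understates changes of low genes. The script was tested on simulated data. edgeR 4.0.16 and DESeq2 1.42.0 were run on recovered reads as alternatives. On those reads they called 135 and 638 genes. Members, lists and the naming rule (members past the threshold or not overlapping, else those of smallest p) were chosen with earlier results of these data known. Positions and exon lengths are from GENCODE M21 (GRCm38), promoters from RefSeq (GRCm38.p6) for 31 of 35 genes, without Atf6, Cth, Hyou1 and Manf. Of the 35, 10 share exon bases with another gene. No library pair agreed within sampling noise (chi-square per degree of freedom 6.93 to 28.3). Figures used matplotlib 3.10.9.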

Additional observations from a re-analysis of the deposited data

How the results depend on the processing

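Over all genes 145 were called. The count was 638 with DESeq2, 6 to 433 without single libraries, 2 without both replicate 3 libraries, and 16 without both of these and with the replicate block. Of the 35 genes 1 was called, with 3 by DESeq2 (Atf4, Eif2s1 and Ern1), 0 with no filter, 0 to 3 without single libraries, and 0 without both replicate 3 libraries, with or without the replicate block. Of the further pathway genes 4 were called, with 9 by DESeq2, 0 to 7 without single libraries and 0 without both replicate 3 libraries, with or without the block. TMM factors, quantile normalization, pseudocounts of 0.5 and 10, a mean of at least 50 and edgeR left the count of the 35 at 1. The medians of ATF4 targets and of ER folding genes moved by less than the spread between libraries (SD 0.209 and 0.112) in every alternative run. That spread was larger than the medians themselves (0.08 and 0.02), so this says little, and both medians changed sign in some runs. Across the runs they went from -0.09 to 0.14 for ATF4 targets and from -0.04 to 0.12 for ER folding genes.

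The main fit did not take the replicate numbers as pairs, since the labels give a shared number but name no shared animal. Same-numbered libraries correlated in their deviations by 0.44 and 0.40 for replicates 1 and 2. Bone marrow replicate 1 with liver replicate 2 gave -0.38, and bone marrow replicate 2 with liver replicate 1 gave -0.44. For replicate 3 the value was 0.058, and liver replicate 3 correlated best with bone marrow replicate 2 (0.15). Replicate 3 lay between the others in Xist and the Y-linked sum, so its low correlation cannot decide on pairing. With the replicate block the counts were 525 over all genes (3.67%), 3 of the 35 (Atf4 and Eif2s1 higher, Ern1 lower) and 8 further pathway genes (Atf3, Sqstm1, Hspe1, Dnajb1, Hspd1, Hsp90b1, Pmaip1 and Cdkn1a).

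No member that was called changed sign. Of 593 refits of single members, 31 changed the sign of a difference that had not passed. Without single libraries the log2 differences ran from -0.042 to 0.033 for Atf5, -0.31 to 0.10 for Atf6, -0.34 to 0.12 for Xbp1, -0.014 to 0.093 for Eif2ak4, -0.50 to 0.64 for Chac1, -0.076 to 0.23 for Ppp1r15a, -0.20 to 0.090 for Nupr1, -0.20 to 0.62 for Cth, -0.048 to 0.29 for Phgdh, -0.055 to 0.11 for Pdia3, -0.0029 to 0.32 for Pdia4, -0.036 to 0.14 for Pdia6, -0.10 to 0.12 for P4hb, -0.092 to 0.15 for Calr, -0.00059 to 0.027 for Canx and -0.0052 to 0.11 for Hyou1. Atf5 was at 0.038 with quantile normalization, and Atf6 at 0.026 without both replicate 3 libraries, with or without the replicate block. The cause was not tested. Chac1, Cth and Trib3 rest on 42 to 388 reads per tissue and also differ widely between replicates 1 and 2, and the share of depth in their wide intervals was not tested.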

Other observations

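Several pathway genes outside the 35 lay apart between tissues without passing in the fit on tissue alone, and were chosen after their values were seen. Pmaip1, the pro-apoptotic NOXA gene that ATF4 and p53 can induce, was at 1255, 1277 and 1233 normalized counts in bone marrow and at 1919, 1521 and 1729 in liver (log2 difference 0.45, limma adjusted p = 0.072). Hspd1, the mitochondrial chaperonin and partner of Hspe1, was at 5736, 6152 and 6285 in bone marrow and at 7263, 7920 and 7232 in liver (0.30, limma adjusted p = 0.069). Hsp90b1, the ER chaperone GRP94, had means of 11005 ± 684 and 12970 ± 1076 (SD, n = 3 each; 0.24, limma adjusted p = 0.20). Pycr1, a proline synthesis enzyme under ATF4 control, was at 138, 226 and 138 in bone marrow and at 115, 86.7 and 78.3 in liver (-0.82, limma adjusted p = 0.19).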
